A study of Mus musculus with 9 samples.

Results

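Digestive enzymes of the exocrine pancreas were measured in RNA scraped from the mouse colon, in a series whose title names dietary heme, the iron-containing pigment of red meat, as its subject. The genes are 10 enzymes or enzyme partners made by pancreatic acinar cells, of 19938 genes on the arrays: Cpa1, Cpb1, Ctrb1, Ctrl, Cel, Cela2a, Cela3b, Clps, Pnliprp1 and Prss2. They were chosen by their measured log2 values in both pools of day 2 against the 7 pools of other days, so that contrast is described here and not tested. The animals were male C57BL/6J mice of 9 to 11 weeks. After 1 week on a control diet that drew 40% of its energy from fat, they either stayed on it (control) or were given it with heme added at 0.2 µmol per g (heme), and were killed on day 0, 2, 4, 7 or 14. RNA of 4 mice was pooled for each diet and day, and of 3 mice for the control pool of day 2, in which 1 mouse had died. Each of the 9 pools, 5 control and 4 heme, went onto 1 Affymetrix whole-transcript array, and day 0 has no heme pool. A diet and day is thus a single value, an SD over pools is taken across days, and the level in a single mouse is not known. Per the labels' protocols the colons were freed of mesenteric fat, opened, washed and scraped for epithelial cells.

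Acinar cells are the main cell type of the pancreas. They make digestive enzymes in bulk, many of them as inactive zymogens, store them in granules and release them into the duct that leads to the small intestine, and the transcription factor complex PTF1 with its partner NR5A2 drives these genes. The colon epithelium absorbs water and salts and is not known as a source of most of these enzymes. In a bulk sample more cells of a type and more RNA per cell cannot be told apart.

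The genes shared the day 2 pattern described next, so the 250 bases before the start of each were searched on both strands for 4 motifs. CACCTG is the E-box of a PTF1 site, and TTTCCC is the TC-box that goes with it. The NR5A2 motif was AAGGTCA, the core to which that receptor binds. TATAAA is the TATA box, which helps to place the start of transcription. No match of one motif overlapped a match of another. RefSeq (GRCm38.p6) gave a promoter for 9 of the 10. CACCTG was found in 6 of the 9, against 17.2% of the 32851 promoters in the table, and TTTCCC in 5, against 21.9%. AAGGTCA was found in 1, that of Cel (4.1% of all promoters), and TATAAA in 1, that of Prss2 (12.4%). CACCTG and TTTCCC stood together in the promoters of Cel, Cela2a and Prss2 (3.61% of all promoters), which are shown for that reason. A match of letters is a description and no measure of binding. The stretches are chr2:28563404-28563653 on the minus strand for Cel, chr4:141826006-141826255 on the minus strand for Cela2a and chr6:41521526-41521775 on the plus strand for Prss2, each written 5′ to 3′ in the direction of the gene, with every match of the 4 motifs, on either strand, in capitals.
Cel: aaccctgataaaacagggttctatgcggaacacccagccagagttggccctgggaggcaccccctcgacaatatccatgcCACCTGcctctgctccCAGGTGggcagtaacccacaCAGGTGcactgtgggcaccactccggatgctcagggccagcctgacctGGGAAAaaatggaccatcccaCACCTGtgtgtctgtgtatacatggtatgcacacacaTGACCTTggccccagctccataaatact
Cela2a: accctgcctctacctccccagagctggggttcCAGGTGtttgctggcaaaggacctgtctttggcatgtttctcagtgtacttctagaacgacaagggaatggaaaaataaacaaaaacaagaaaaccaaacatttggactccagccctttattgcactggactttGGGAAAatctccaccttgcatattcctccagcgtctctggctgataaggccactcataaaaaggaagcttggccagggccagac
Prss2: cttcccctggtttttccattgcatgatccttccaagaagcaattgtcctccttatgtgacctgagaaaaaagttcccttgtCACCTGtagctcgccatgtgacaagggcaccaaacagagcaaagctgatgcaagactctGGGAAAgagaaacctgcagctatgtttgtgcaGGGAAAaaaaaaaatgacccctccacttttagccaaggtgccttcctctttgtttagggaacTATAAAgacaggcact

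All 10 enzyme genes stood higher in both pools of day 2 than in any of the 7 other pools, on the control diet as well as on heme. Over the mean of the 7 other pools they were a median of 14.1-fold higher in the control pool of day 2 (range 2.51 to 62.2) and a median of 20.8-fold higher in the heme pool (range 2.82 to 93.5). These folds are ratios of array signal. For Cpb1, Pnliprp1, Cel and Prss2 the other pools lie near the low end of the array, and whether they lie above background was not tested. All 10 were at least 2-fold higher in both pools, which held for 0.12% of the 14953 genes tested (18 genes, the 10 included). Both pools of day 2 lay above all 7 others for the 10 and for 4.49% of the genes tested (671 genes). The median difference of the day 2 mean from the other pools was 4.08 log2 for the 10 genes and 0.004 for all genes tested. These values chose the genes and are no evidence beyond them.

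**Figure D1:**
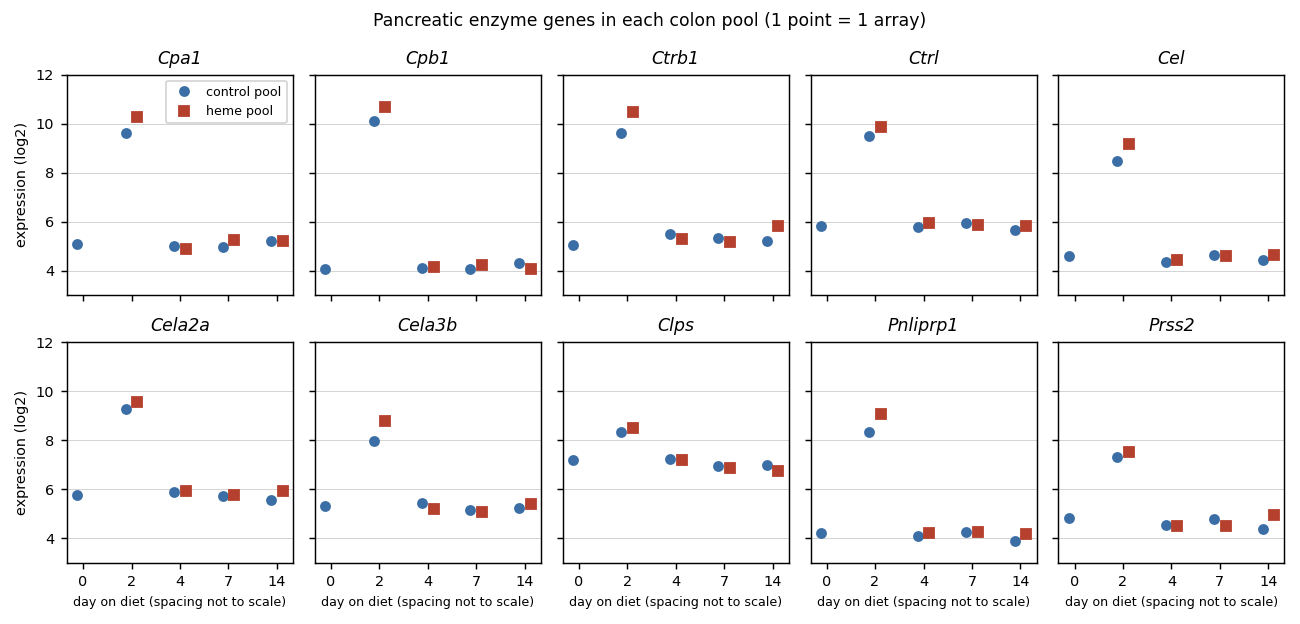
Expression on the log2 scale (vertical axis) of the 10 enzyme genes by day on diet (horizontal axis), with 1 point for each pool, circles for control and squares for heme. Both day 2 points lie above the rest in all 10 panels, from Clps, with 8.34 and 8.51 against at most 7.22, to Cpb1, with 10.1 and 10.7 against at most 4.29.

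Carboxypeptidases trim amino acids from the end of a peptide. Cpb1, carboxypeptidase B, which removes basic residues, read 10.09 log2 in the control pool and 10.68 in the heme pool of day 2, while the 7 other pools ran from 4.04 over a median of 4.09 to 4.29. The gap between the lower day 2 pool and the highest other pool was 5.80 log2, the widest of the 10 genes. Cpa1, carboxypeptidase A, which removes aromatic and branched residues, read 9.61 in the control pool and 10.25 in the heme pool of day 2. Its other pools lay between 4.89 and 5.24, with a median of 5.08, so the groups were apart by 4.37 log2.

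Serine proteases cut inside the chain. Ctrb1, chymotrypsinogen B, read 9.61 in the control pool and 10.47 in the heme pool of day 2, against 5.03 to 5.83 (median 5.29) elsewhere. Among the 7 other pools the heme pool of day 14 was its highest. Ctrl, a chymotrypsin-like protease, read 9.50 and 9.87 in the same pools, against 5.64 to 5.92 (median 5.83). Cela2a and Cela3b are elastases of the pancreas. Cela2a read 9.26 in the control pool and 9.54 in the heme pool of day 2, against 5.54 to 5.92 (median 5.76). Cela3b read 7.94 and 8.77, against 5.06 to 5.43 (median 5.22). Prss2, a trypsinogen, whose active form switches on the other zymogens, read 7.31 and 7.52, against 4.38 to 4.95 (median 4.53). In these 5 genes too no other pool reached the day 2 pools, and the nearest approach was 2.36 log2 in Prss2. Trypsin genes are close copies of each other, so which of them a probeset measured is uncertain.

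The lipid-digesting genes were the remaining members. Cel, carboxyl ester lipase, which splits cholesterol esters and other fats in the presence of bile salts, read 8.47 in the control pool and 9.17 in the heme pool of day 2, against 4.36 to 4.64 (median 4.59) elsewhere. Pnliprp1, a protein related to pancreatic lipase, read 8.32 and 9.07, against 3.86 to 4.26 (median 4.22). Clps, colipase, the cofactor that anchors pancreatic lipase on fat droplets, was the exception in size. It read 8.34 in the control pool and 8.51 in the heme pool of day 2, against 6.73 to 7.22 (median 6.97), a gap of 1.12 log2. Clps also had the smallest difference of the 10 genes, with 1.33 log2 over the other pools in the control pool and 1.497 in the heme pool, where the next, Prss2, had 2.68 and 2.88. Without Clps, a choice made after its values were seen, the median difference of the genes was 4.30 log2.

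Away from day 2 the spread was small. The SD of the genes over the 7 pools lay between 0.09 log2 in Cpb1 and 0.26 in Ctrb1, with a median of 0.14 (n = 7 pools of 4 days), against day 2 differences of 1.41 log2 for Clps up to 6.25 for Cpb1. The mean over these pools was below the filter value of 4.716 log2, the 25th percentile of gene means, for Cel (4.52), Cpb1 (4.13), Pnliprp1 (4.15) and Prss2 (4.64). These 4 genes passed the filter on low values only through day 2, and the other 6 also without it. No pool of the other days was high or low throughout. The control pool of day 14 was the lowest of the 7 for 4 genes, the largest such count, and the highest for 1. The correlation of the genes with each other over the 7 pools had a median of 0.015 over 45 pairs and ran from -0.807 to 0.946. These points share the arrays and their joint normalization.

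On day 2 the heme pool read higher than the control pool for all 10 genes. The difference was 0.62 log2 at the median, or 1.53-fold, and ran from 0.17 (Clps, 1.13-fold) to 0.87 (Ctrb1, 1.83-fold), with an SD over the genes of 0.26. The median over all genes tested was 0.000. Prss2 (0.21), Cela2a (0.28) and Ctrl (0.37) were near the low end, Cpb1 (0.59), Cpa1 (0.65), Cel (0.71) and Pnliprp1 (0.74) in the middle, and Cela3b (0.82) beside Ctrb1 at the top. There is 1 pool for each diet on this day, the control pool held 3 mice and the heme pool 4, and the genes of a pool share its animals, so this difference has no replicate check and no test.

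**Figure D2:**
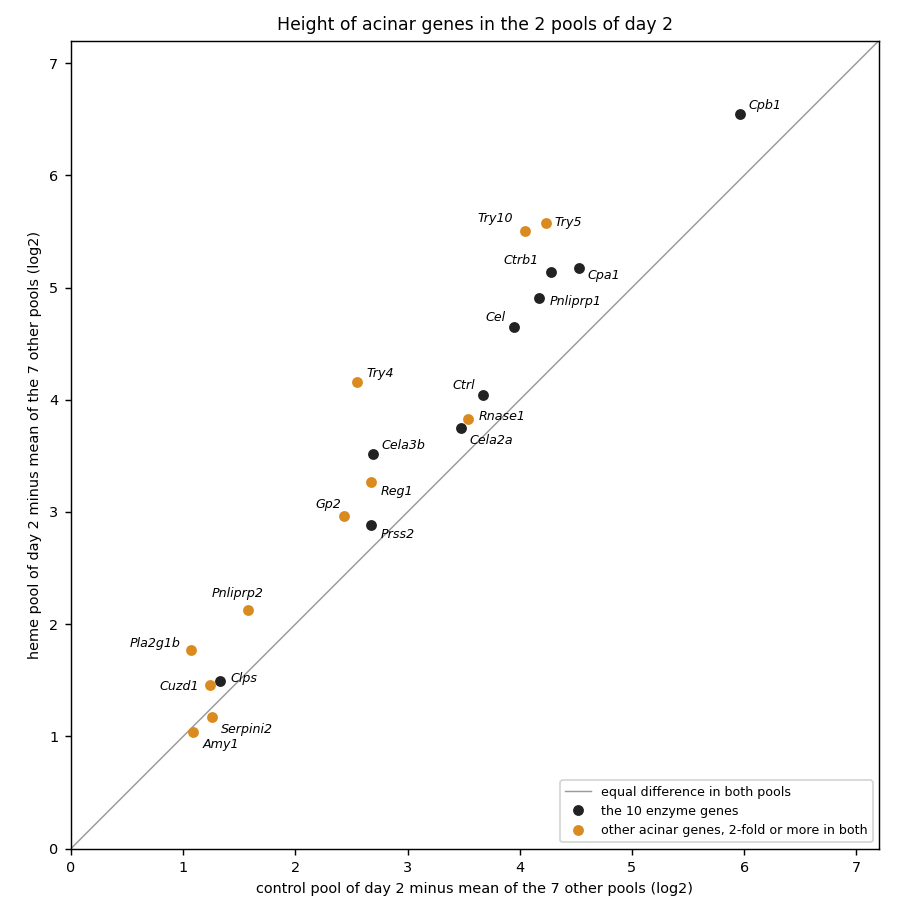
Height over the mean of the 7 other pools, in log2, in the control pool of day 2 (horizontal axis) and the heme pool of day 2 (vertical axis), with 1 point for each gene and a line where both are equal. The 10 enzyme genes lie above the line, and Try4, Try5 and Try10 lie farthest above it (1.61, 1.35 and 1.46 log2).

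No difference between the diets was called for the enzyme genes on the other days. Over the 3 heme and 4 control pools of days 0, 4, 7 and 14, 0 of the 10 genes were called by limma at an adjusted p under 0.05, with 0.803% of the genes tested called (120 genes, 104 higher and 16 lower on heme), and 0 of the 10 had an unadjusted p under 0.05. The differences ran from -0.15 log2 for Clps (95% interval -0.43 to 0.12, adjusted p = 0.515) to 0.18 for Ctrb1 (-0.20 to 0.56, adjusted p = 0.582), with a median of 0.05, against -0.004 for all genes tested. The lowest adjusted p was that of Cela2a, with a mean of 5.72 log2 over the 4 control pools and 5.87 over the 3 heme pools (difference 0.14, 95% interval -0.06 to 0.35, adjusted p = 0.437). Cel, Cpb1, Pnliprp1 and Prss2 entered this test only through their day 2 values, as their means over the pools tested here lay below the filter value. Within single days the heme pool minus the control pool ran from -0.23 to 0.14 on day 4, from -0.26 to 0.29 on day 7 and from -0.24 to 0.63 on day 14. On day 14 Ctrb1 (0.63) and Prss2 (0.57) were highest. Of the 10 genes, 8 were above 0 on day 14 (median 0.21), 5 on day 4 (median 0.01) and 4 on day 7 (median -0.05). Genes of other lists also differed on day 14. In the liver list Ahsg, which did not pass the filter, was highest (0.53), and Cyp2e1 (-0.55) was the only gene below 0. Each diet has 1 pool on a day, so differences within single days were not tested. The 120 calls became 1003 without the heme pool of day 4 and between 2 and 56 without any other pool, but the enzyme genes called stayed at 0 in each of these fits.

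**Figure D3:**
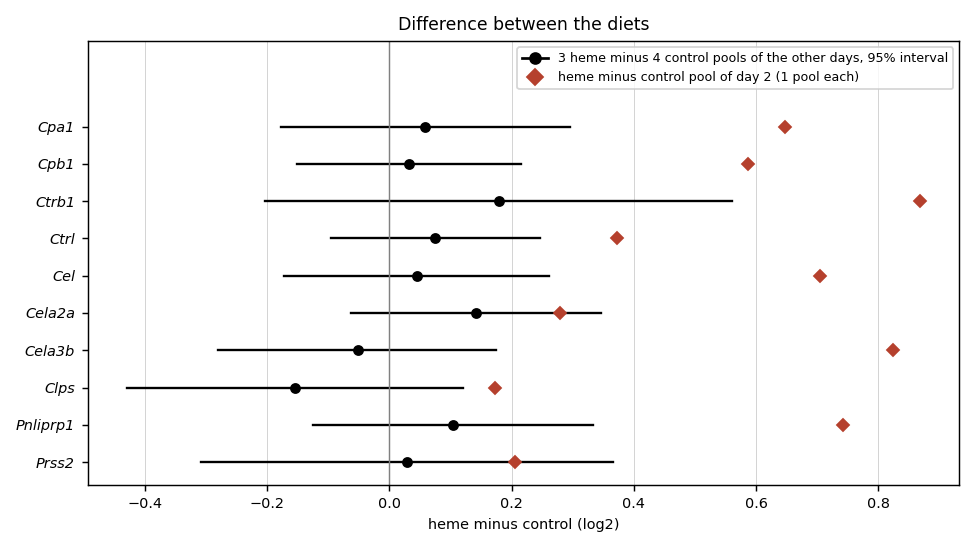
Heme minus control in log2 (horizontal axis) for each enzyme gene: circles with bars are the limma estimate over 3 heme and 4 control pools of the other days with its 95% interval, and diamonds are the single pair of pools of day 2. All 10 bars cross 0, and the diamonds run from 0.17 to 0.87.

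With both pools of day 2 included, 0 of the 10 genes were called between the 4 heme and 5 control pools, with 0.669% of the genes tested called (100 genes), and the adjusted p ran from 0.82 to 0.994. The intervals were wide. The genes were chosen for being high in both pools of day 2, and each diet holds 1 of these, so this fit could hardly call them. The 0 of 10 is therefore no result about the diet. For Cpb1 the difference was 0.47 log2 (95% interval -3.18 to 4.11, adjusted p = 0.89), and for Ctrb1 0.57 (-2.18 to 3.32, adjusted p = 0.82). The sign turned with the pools of day 2. Without the heme pool of that day the difference was negative in all 10 genes, down to -1.16 for Cpb1. Without the control pool of that day it was positive in all 10, up to 1.66. No gene was called either way (lowest adjusted p = 0.432 and 0.53).

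Other acinar genes shared the pattern in part. The list of further digestive enzymes held 24 symbols, of which 11 were measured under that symbol by a probeset of 1 gene. Of these 11, 7 were at least 2-fold higher in both pools of day 2 and 9 had both pools above the 7 others. The trypsinogens Try5, Try10 and Try4 were 4.23, 4.04 and 2.55 log2 above the other pools in the control pool of day 2, and 5.58, 5.50 and 4.16 in the heme pool. Rnase1, the pancreatic ribonuclease, stood 3.54 and 3.83 higher, Pnliprp2, a further lipase relative, 1.57 and 2.13, the phospholipase Pla2g1b 1.07 and 1.77, and Amy1, the amylase gene named for the salivary gland, 1.09 and 1.04. The 4 short of this size were Cela1 (0.79 and 0.95), Cela3a (0.36 and 0.39), Prss3 (0.11 and 0.88) and Ctrc (0.01 and 0.25). Cela1 was the one of these 4 with a sizeable level in every pool, from 8.00 to 8.94 log2 away from day 2.

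Of 17 other secretory and membrane proteins of the acinar cell, 4 were at least 2-fold higher in both pools of day 2. They were Reg1, a secreted lectin (2.68 log2 in the control pool and 3.27 in the heme pool), Gp2 (2.44 and 2.97) and Cuzd1 (1.24 and 1.46), membrane proteins of the zymogen granule, and Serpini2, a serpin of the pancreas (1.26 and 1.18). Zg16 and Dmbt1, which the colon epithelium also makes, and the granule protein Sycn were high in every pool. Zg16 lay between 12.47 and 12.60 log2 over the 9 pools, with a day 2 difference of 0.00 in the control pool and -0.01 in the heme pool. Sycn read 10.36 and 10.44 on day 2, beside 10.29 to 10.47 in the other pools up to day 4 and 9.09 in the heme pool of day 14.

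The difference between the day 2 pools varied in size from gene to gene, and whether it varied beyond error was not tested. Over the 11 further acinar genes that were at least 2-fold higher in both, heme minus control ran from -0.08 (Serpini2) and -0.05 (Amy1) to 1.61 (Try4), with a median of 0.55 and 9 of 11 above 0. Serpini2, Amy1, Try4 and Cuzd1 did not pass the filter on low values. Try4, Try5 and Try10 were 3.05-fold, 2.55-fold and 2.75-fold higher in the heme pool than in the control pool. Prss2, of the same family, was 1.15-fold higher. Reg2 stood at the level of the other pools in the control pool of day 2 (3.79 against 3.49 to 3.98) and at 4.90 in the heme pool, a difference of 1.10. Pdia2, a protein disulfide isomerase of the pancreas, read 4.87 in the control pool and 5.63 in the heme pool, against 3.97 to 4.25. Reg2 and Pdia2 did not pass the filter on low values either.

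None of the 7 transcription factors of acinar cells that were measured was 2-fold higher, and the list median was 0.02 log2 in the control pool and 0.05 in the heme pool of day 2. A small rise could be missed here. Ptf1a did not pass the filter on low values, and Nr5a2, Gata6 and Mecom had means of 8.64, 8.68 and 9.16 log2 over the other pools. Ptf1a read 4.35 and 4.37 on day 2 against 4.07 to 4.62 elsewhere. Its partner Rbpjl read 5.32 and 5.68 against 5.26 to 5.70, and Bhlha15 5.69 and 5.48 against 5.59 to 5.74. Nr5a2, which the gut epithelium also expresses, read 8.84 and 8.74 against 8.47 to 8.73. It was the 1 factor with both day 2 pools above the others (4.49% of the genes tested were), with differences from the mean of the other pools of 0.20 and 0.10.

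Markers of other tissues next to the colon were examined in the same way. Of 11 islet genes 0 were 2-fold higher in both pools of day 2 and 0 lay above all other pools, with Ins2, an insulin gene, at 4.75 and 4.92 against 4.72 to 5.03. A small rise in islet genes could be missed. Gcg, Sst and Ppy had means of 9.67, 6.955 and 6.85 log2 over the other pools, and Slc30a8 and G6pc2 did not pass the filter. Of 6 duct genes 0 were higher by either rule, though the colon epithelium itself expresses several, such as Krt19 at 12.8 log2. Of 11 lymphoid genes 0 were 2-fold higher, 1 lay above and 1 below all other pools, as 4.49% and 4.18% of the genes tested did. Liver and stomach lists (10 and 9 genes) had 0 genes 2-fold higher in both pools, and so had the list for the small intestine (9 genes). Pgc of the stomach list lay above and Fgg of the liver list below all other pools, and neither passed the filter. Sis of the small intestine list was 2.02-fold higher in the control pool and 1.095-fold in the heme pool. The liver gene Apoa1 read 6.49 in the heme pool and 5.35 in the control pool, against at most 5.72 elsewhere. Apoa4 of the small intestine list read 6.84 and 5.82 in these pools, against at most 6.00. In the salivary list 1 of 8 was 2-fold higher in both pools, Amy1, which is also on an acinar list. The salivary secretory protein Bpifa2 read 3.77 in both pools against 3.71 to 4.08. Of 9 adipocyte genes 0 were 2-fold higher and 1 lay above all other pools, the adipokine Adipoq, with 6.08 and 5.89 against 4.79 to 5.70. The adipocyte list median was -0.01 log2 in the control pool and 0.06 in the heme pool. Epithelial markers of the colon held their level: the list median was -0.01 in both pools, and Epcam read 11.7 in both.

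Muscle and stromal genes stood lower in the same pools. Of 10 smooth muscle genes 5 were at least 2-fold lower in both pools of day 2 and 4 lay below all other pools, against 0.0669% and 4.18% of the genes tested, with list medians of -1.03 log2 in the control pool and -1.15 in the heme pool. The summed level of the list was 10.66 and 10.68 log2 on day 2 against 10.94 to 12.94 in the other pools. Acta2, smooth muscle actin, read 9.00 and 9.12 against 9.59 to 11.47. In Actg2 and Des the pools of day 7 were the highest (9.91 and 8.90 in Actg2) and raise the mean of the other pools. The heme pool of day 14 lay at the day 2 level in both. Actg2 read 6.995 there, beside 7.12 and 6.96 on day 2, and Des 5.525, beside 6.01 and 5.65. Of 9 fibroblast genes 2 were at least 2-fold lower in both and 7 lay below all other pools (list medians -0.60 and -0.82, summed level 10.73 and 10.59 against 11.05 to 11.94). Whether these shifts have a part in the enzyme signal was not tested, and the day cannot be told apart from anything else that both pools of day 2 share.

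**Figure D4:**
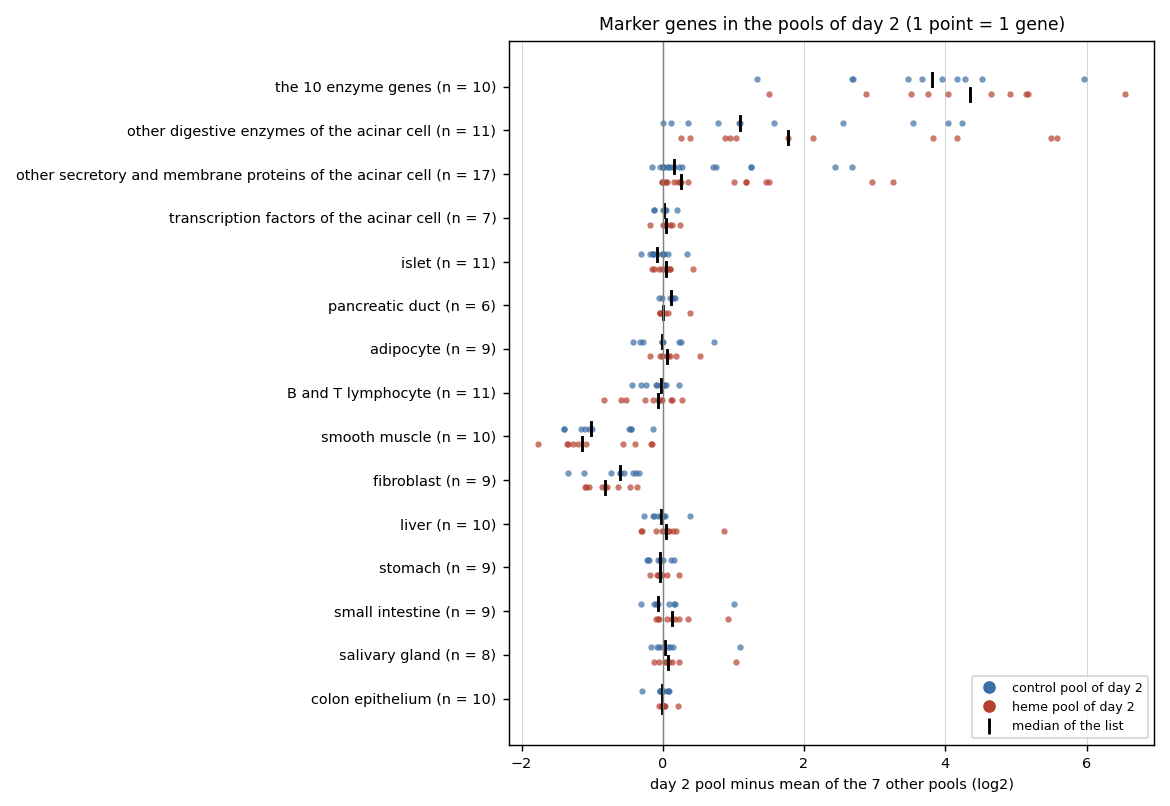
Difference of each marker gene from the mean of the 7 other pools, in log2 (horizontal axis), in the control (blue) and heme (red) pool of day 2, by list (vertical axis, n genes measured), with a black bar at the list median. The medians of the 10 enzyme genes are 3.81 and 4.35, those of smooth muscle -1.03 and -1.15, and those of islet and colon epithelium lie within 0.08 of 0.

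Among genes on none of the acinar lists, the pattern most like that of the enzymes was looked for by Pearson correlation with their mean over the 9 pools, in genes with a range of at least 1 log2. The first was 2210010C04Rik (r = 0.997), with 8.94 in the control pool and 9.53 in the heme pool of day 2 against 3.39 to 4.23. The second was Gm5409 (r = 0.981), a pseudogene with the RefSeq synonym Try10l, with 4.59 and 5.22 against 3.27 to 3.52. RefSeq places both on the chromosome that also carries Prss2, Try4, Try5 and Try10. The next 6 had r of 0.819 (Ccl20, a chemokine), 0.722 (Tdpoz1), 0.713 (Adipoq), 0.713 (Itln1, an intelectin), 0.646 (Olfr172) and 0.624 (Slc15a2, a peptide transporter), and 0 of these were 2-fold higher in both pools of day 2. Of all 23 named genes that were, tested or not, 21 were on the acinar lists, 10 of them the enzyme genes, and the others were 2210010C04Rik and Gm5409. Genes were matched to the lists by symbol alone. A listed gene that the array names otherwise would count here as on no list, so these 2 are not shown to be other than acinar genes. The 9 points share the 2 high pools, which set these correlations.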

How the data were processed

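Epithelial scrapings were profiled on Affymetrix whole-transcript arrays, 1 per pool. The deposited values are log2 expression values of probesets. The authors used RMA (background correction, quantile normalization over the arrays, median polish), per the submitters' processing notes. The version of RMA was not stated there. Quantile normalization forces arrays to 1 distribution, and median polish can give identical values in several arrays, as 4 of the 10 genes showed. Of 35556 probesets, 21789 had 1 gene symbol in the platform annotation, 1621 had several and 12146 were unnamed here. Each of the 10 genes had 1 probeset; elsewhere the one with the highest mean was kept. Genes with a mean at or above the 25th percentile were tested (14953).

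Tests used limma 3.58.1 in R 4.3.3 (lmFit, eBayes with intensity trend), with Benjamini-Hochberg adjustment over all genes tested and a threshold of 0.05. They were checked on simulated data with independent pools and the spread of the pools of other days. The simulation held no high day 2 pools and no same-day correlation, so it does not check the fits for these. Tables and figures were made with Python 3.11.15 and matplotlib 3.10.9. Arrays carry no read depth, so their number sets the precision. The p-values reflect how pools from different days vary, which may be technical, and not how animals vary. Members and lists were chosen with earlier results of these data known. Named besides the 10 are acinar list genes at least 2-fold higher in both pools of day 2, defining markers of the other lists, and the 8 genes most correlated with the mean of the 10. Names outside this rule were chosen after their values were seen, such as list genes that fell short of 2-fold. Both diets share days 2, 4, 7 and 14 in the labels, and the deviations of the same-day pools correlated with r = 0.651, -0.005, 0.333 and 0.168, against -0.454 to 0.422 between days. A fit blocked on the day, the alternatives for filter, scaling, probeset and trend, and leaving out each pool are given in the closing section.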

Additional observations from a re-analysis of the deposited data

Results flagged for a closer look

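In each diet the pool of day 2 stood far from the other pools of that diet for the enzyme genes, measured as the gap to the nearest pool divided by the whole range. Genes are listed where this ratio was above Dixon's 95% critical value (0.71 for the 5 control pools, 0.829 for the 4 heme pools). The genes were chosen on these same values, so the ratios are a description and no test. Over all 14953 genes tested, the day 2 pool was the highest with such a ratio in 2.61% among the control pools (391 genes) and in 1.3% among the heme pools (195 genes). Among the control pools this ratio was 0.948 for Cpa1, 0.959 for Cpb1, 0.904 for Ctrb1, 0.928 for Ctrl, 0.93 for Cel, 0.91 for Cela2a, 0.903 for Cela3b, 0.799 for Clps, 0.912 for Pnliprp1 and 0.849 for Prss2. Among the heme pools it was 0.934 for Cpa1, 0.979 for Cpb1, 0.877 for Ctrb1, 0.975 for Ctrl, 0.953 for Cel, 0.953 for Cela2a, 0.907 for Cela3b, 0.98 for Pnliprp1 and 0.853 for Prss2, and Clps was not above the value there.

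The 11 further acinar genes were taken up because both day 2 pools were at least 2-fold above the others, so their ratios restate that choice. They were above the value for 10 genes among the control pools and 9 among the heme pools. The ratio among the control pools was 0.729 for Amy1, 0.921 for Cuzd1, 0.811 for Gp2, 0.805 for Pla2g1b, 0.803 for Reg1, 0.901 for Rnase1, 0.785 for Serpini2, 0.909 for Try10, 0.867 for Try4 and 0.908 for Try5. Among the heme pools it was 0.958 for Cuzd1, 0.873 for Gp2, 0.989 for Pla2g1b, 0.857 for Reg1, 0.937 for Rnase1, 0.923 for Serpini2, 0.918 for Try10, 0.924 for Try4 and 0.921 for Try5. In all of these the pool that stood apart was that of day 2 and was the highest. The genes were chosen for a high pool on day 2, so the critical value gives no chance rate for them, and the genes of a pool share its animals.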

How the results depend on the processing

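The enzyme genes called between the diets stayed at 0 under all 15 alternatives over all pools and all 13 over the other days (lowest adjusted p in limma 0.286 and 0.133). Over all pools without a block on the day, the high pools that chose the genes widen the spread within the diets. A call was hardly possible there. With the filter at the 50th percentile only 4 of the 10 were tested (Cela2a, Clps, Ctrb1 and Ctrl). With the day as a replicate block the heme minus control difference of the 10 genes over days 2 to 14 ran from -0.05 to 0.30 log2 (lowest adjusted p = 0.286). Before adjustment for the genes tested, the confidence interval lay above 0 for Cela2a (0.004 to 0.366) and Pnliprp1 (0.001 to 0.582). Their adjusted p in limma was 0.286 and 0.291. For the other enzyme genes the interval included 0, and only Clps had a negative difference. With the block over the other days the interval included 0 for all 10 genes. No call of an enzyme gene changed with the block. The count of all genes called over the other days was 120 and moved to 79 with the day as a replicate block and to 74 without the intensity trend. Leaving out 1 pool gave 2 to 1003 over the other days and 30 to 251 over all pools, against 100. Over all pools it was 251 without the heme pool of day 2, and 58 or fewer without the control pool of day 0, 2, 4 or 14 or the heme pool of day 7 or 14. Leaving out 1 pool also turned the sign of uncalled differences. Over all pools these ran from -0.85 to 1.34 for Cpa1, -1.16 to 1.66 for Cpb1, -0.69 to 1.44 for Ctrb1, -0.67 to 1.08 for Ctrl, -0.75 to 1.20 for Cel, -0.56 to 1.06 for Cela2a, -0.59 to 0.83 for Cela3b, -0.41 to 0.24 for Clps, -0.74 to 1.32 for Pnliprp1 and -0.51 to 0.74 for Prss2, and over the other days from -0.145 to 0.028 for Cela3b, -0.019 to 0.306 for Ctrb1 and -0.12 to 0.10 for Prss2. The median height of the 10 genes on day 2 was 4.08 log2, 3.81 to 4.35 with 1 pool left out, and 4.30 without Clps, an alternative added after the data were seen. It moved by less than the spread between pools under the other references, scalings and probeset rules. The count at least 2-fold higher stayed at 10, or 9 without Clps. The cause of these shifts was not tested. Signal near the lower end of the array limits the reading of the genes away from day 2.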

Other observations

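Probesets left out for want of a single gene name held the largest differences on day 2. On the array 6 probesets, each shared by several genes of the amylase family, the starch-splitting enzymes, read 11.35 to 11.63 log2 in the control and 11.43 to 11.77 in the heme pool of day 2, against 3.03 to 4.35 in the other pools. Of these 6, 4 held identical values and are not separate measurements. Their differences from the other pools, 8.02 to 8.14 log2, exceed those of all 10 enzyme genes. Among the other pools the control pool of day 7 read 4.13 to 4.35 in these probesets, and the remaining 6 pools 3.03 to 3.71. A pair of probesets shared by several trypsin genes stood 1.49 and 2.26 log2 above the other pools on day 2. Of the unnamed probesets, 6 were at least 2-fold higher in both pools of day 2 and above all other pools, up to 8.94 and 9.63 log2 against 4.12 to 4.69 (probeset 10464298). Probeset 10537014 read 7.94 and 8.57 against 4.54 to 4.85. The rest varied more, with SDs over the other pools of 0.38 to 0.80 log2 and gaps of only 0.15 to 0.65 log2. The share of all unnamed probesets that met these rules by their spread alone was not tested.

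Named genes at least 2-fold lower in both pools of day 2 numbered 10. Among them were the contractile genes Cnn1 (6.30 log2 in the control pool and 5.70 in the heme pool, against 6.12 to 9.20 elsewhere, so that its groups overlap), Tagln (6.99 and 7.05, against 7.62 to 9.60) and Myh11 (8.05 and 8.08, against 8.17 to 10.52), and the matrix proteoglycans Dcn (8.23 and 8.46, against 9.06 to 10.14) and Lum (5.24 and 5.31, against 5.64 to 6.97). The control pool of day 7 was the highest pool for Cnn1, Tagln and Myh11. The remaining 5 were Acta2, Actg2, Myl9, Pgm5 and an immunoglobulin variable gene.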
